A study of Mus musculus with 4 samples.

Results

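The acute-phase proteins described here are plasma proteins that liver secretes in changed amounts during inflammation and injury. The 10 genes are Saa1, Saa2, Saa3, Saa4, Orm1, Orm2, Hp, Hpx, Lcn2 and Apcs, chosen by name. All 10 were found among the 12883 genes of the input comparison and 8 of them among the 7569 transcript features of the immunoprecipitate comparison, where each had 1 feature. Saa1 and Lcn2 were not analysed here in the immunoprecipitate. Liver of Fto knockout mice was set against liver of wild-type mice, both on a C57/Bl6 background. RNA bound by an antibody against methylated adenosine (labelled 6mA-IP) and the matching input RNA were sequenced by miCLIP, in which antibody and RNA are crosslinked by ultraviolet light before the bound pieces are cloned. The Fto enzyme takes methyl groups off modified adenosines of RNA. The labels state 3 replicates in each of the 4 groups, but not the knockout allele, the age or sex of the mice, or whether the replicates came from different animals. The p-values thus cover the spread between these libraries, and that spread may be technical.

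Interleukin-6 and interleukin-1 released at a site of damage reach hepatocytes and act through JAK kinases with STAT3, through NF-kB and through C/EBP factors to raise transcription of acute-phase genes. The serum amyloid A proteins Saa1 and Saa2 are the strongly induced apolipoproteins of high-density lipoprotein in the mouse, and Saa3 is made in macrophages and fat as well as in liver. Saa4 is the form made constitutively. Orm1 and Orm2 encode alpha-1-acid glycoproteins, which carry small hydrophobic molecules in plasma. Hp binds free haemoglobin and Hpx binds free heme. Lcn2 withholds iron from bacteria by binding their siderophores and is also made by neutrophils. Apcs encodes serum amyloid P, the acute-phase pentraxin of the mouse.

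The Saa genes lie in a cluster on chromosome 7. In RefSeq on GRCm38.p6, Saa3 spans chr7:46711998-46719615, Saa4 chr7:46727992-46732603, Saa1 chr7:46740497-46743181 and Saa2 chr7:46751833-46754313. Orm1 (chr4:63344556-63348163) and Orm2 (chr4:63362449-63365877) lie in 1 cluster on chromosome 4, with Orm3 between them. Hpx is at chr7:105591611-105600116, Hp at chr8:109575128-109579172, Lcn2 at chr2:32384637-32387739 and Apcs at chr1:172893961-172895054. The stretches upstream of Saa1 and Saa2 are shown because they are nearly identical to each other. The transcripts of the pair were not compared here, and how the authors' counting treated reads that match both genes is unknown. The stretch of Saa4 is shown beside those of Saa1 and Saa2, since Saa4 is the member called in the immunoprecipitate. Each run is from RefSeq on GRCm38.p6, covers 200 bases before the transcript start and ends on the first transcribed base. It is at chr7:46742980-46743180 on the minus strand for Saa1, chr7:46751633-46751833 on the plus strand for Saa2 and chr7:46732603-46732803 on the minus strand for Saa4. Capitals mark the first transcribed base and, in Saa1 and Saa2, a match to the C/EBP letters TTNNGNAAT on the opposite strand.
Saa1: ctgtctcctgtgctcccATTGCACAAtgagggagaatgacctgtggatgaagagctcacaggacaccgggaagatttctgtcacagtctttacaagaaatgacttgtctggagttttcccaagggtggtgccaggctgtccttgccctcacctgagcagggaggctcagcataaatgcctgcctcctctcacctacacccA
Saa2: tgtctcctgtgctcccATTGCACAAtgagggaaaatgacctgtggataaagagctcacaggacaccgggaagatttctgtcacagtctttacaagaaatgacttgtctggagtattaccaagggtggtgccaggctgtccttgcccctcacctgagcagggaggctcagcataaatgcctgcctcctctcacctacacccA
Saa4: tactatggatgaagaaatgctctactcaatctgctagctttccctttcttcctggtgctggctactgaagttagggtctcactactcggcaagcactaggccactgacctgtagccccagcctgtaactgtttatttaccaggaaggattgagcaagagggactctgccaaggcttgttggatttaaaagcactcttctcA

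Over the 250 bases before the start, Saa1 and Saa2 were identical at 238 of 251 aligned columns (94.8%). Other pairs among the 8 members with a promoter entry in RefSeq had 45.7% to 54.5%, which is what a gapped alignment of these unlike stretches gave. The C/EBP letters, searched on both strands from 250 bases before to 50 after the start, were found in 3 of the 8 entries (Saa1, Saa2 and Orm2) and in 11.5% of all 32851 entries. The matches in Saa1 and Saa2 have the same letters within nearly identical stretches, so they are not separate observations. The STAT letters TTCNNNGAA, searched on both strands, were in 1 of the 8 (Apcs) and in 8.30% of all. The letters GGGNNTTCC, searched for NF-kB on both strands, were in 0 of the 8 and in 5.82% of all. Sites of other lengths or letters were not searched, so this count does not show that the members lack NF-kB sites. The TATA box letters TATAAA, on the sense strand, were in 1 of the 8 (Orm2) and in 8.32% of all. The matches did not overlap each other. Methylation next to the cap (m6Am), which Fto removes and the antibody also binds, needs an adenosine as the first transcribed base. That base was A in Saa1, Saa2, Saa4, Orm2 and Lcn2, G in Hpx and Apcs, and T in Saa3, against A in 34.4% of all entries. For Saa3 the start used lies 3939 bases inside the annotated gene and for Saa1 201 bases inside it, since RefSeq spans each gene to the most upstream end of its models. The other 6 starts are at the annotated 5′ end of the gene. The T of Saa3, its lack of matches and its identities with other members hold for that internal start alone, and all these letters describe the annotation and not the measured RNA.

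The input comparison, knockout against wild-type liver, asks whether the steady level of acute-phase RNA differs without Fto. None of the 9 genes with a p passed the test, and all 10 had estimates below 0, between −0.47 (Orm1) and −0.01 (Apcs) on the log2 scale by the authors' deposited table. Their median log2 fold change was −0.22, beside 0.02 for all genes in the table. Of all genes, 46.5% lay below 0, and of those with a mean normalized count of at least 500 it was 55.0%. The 10 genes were measured in the same libraries, so their shared sign is not 10 separate observations. The direction was read as knockout over wild type from Fto itself, at −1.49 (SE 0.27, adjusted p = 3.52e-04, mean 55.8) by the authors' deposited table. DESeq2, the tool named in the processing notes, called 0 of the 9 members with an adjusted p, against 0.0389% of all genes (5 of 12865), and 0 of the 9 had an unadjusted p under 0.05. In whole-liver RNA, fewer cells of a type and less RNA per cell cannot be told apart.

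Saa1 stood at −0.22 (SE 0.19) at a mean of 1378 normalized counts by the authors' deposited table. Saa2, at a mean of 644, had nearly that value at −0.22 (SE 0.18) by the authors' deposited table. This pair had the smallest standard errors of the 10 genes, and their 95% intervals, taken as 1.96 standard errors to each side, ran from −0.58 to 0.14 for Saa1 and from −0.57 to 0.12 for Saa2. Saa4, at a mean of 481, stood at −0.20 (SE 0.29) by the authors' deposited table. Saa3, at a mean of 63.1, stood at −0.36 (SE 0.21) by the authors' deposited table, the lowest of the Saa genes. Saa3 is among the 18 of 12883 input genes to which the authors' deposited table gives no p. DESeq2 leaves out a p where a count in 1 library lies far from the rest, and the reason in this case was not stated. All 4 Saa intervals included 0.

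Orm1 had the lowest estimate of the 10 genes, at −0.47 (SE 0.28, unadjusted p = 0.0925, adjusted p = 0.9998, mean 783) by the authors' deposited table. Its 95% interval ran from −1.01 to 0.08, that is from 0.497 to 1.05 times the wild-type level. Orm2 stood at −0.28 (SE 0.23, mean 63.2) by the authors' deposited table, so that both alpha-1-acid glycoprotein genes lay below the Saa1 and Saa2 pair by less than 1 standard error. The scavengers were close to each other and to Saa1. Hp stood at −0.21 (SE 0.29, mean 10434) and Hpx at −0.19 (SE 0.30, mean 13391) by the authors' deposited table. Lcn2 was nearer to 0, at −0.07 (SE 0.21, mean 101.9), and Apcs was at −0.01 (SE 0.29, mean 231.8) by the authors' deposited table. The whole range across the 10 genes was 0.45, while single standard errors were 0.18 to 0.30. No estimate lay further than 1.68 standard errors from 0. Interval widths differed by gene. The printed intervals were narrowest for Saa1, at 0.667 to 1.10 times wild type, and Saa2, at 0.673 to 1.09. That of Apcs ran from 0.667 to 1.47 times wild type. A narrow interval here need not mean a tighter measurement. In the same comparison Fpr2, at a mean of 1.65, had a standard error of 0.09, and Alb, at a mean of 84262, had 0.23. The input estimates may be shrunken, and intervals are then too narrow for the unshrunken change. Means are not per length and are not compared between genes.

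**Figure D1:**
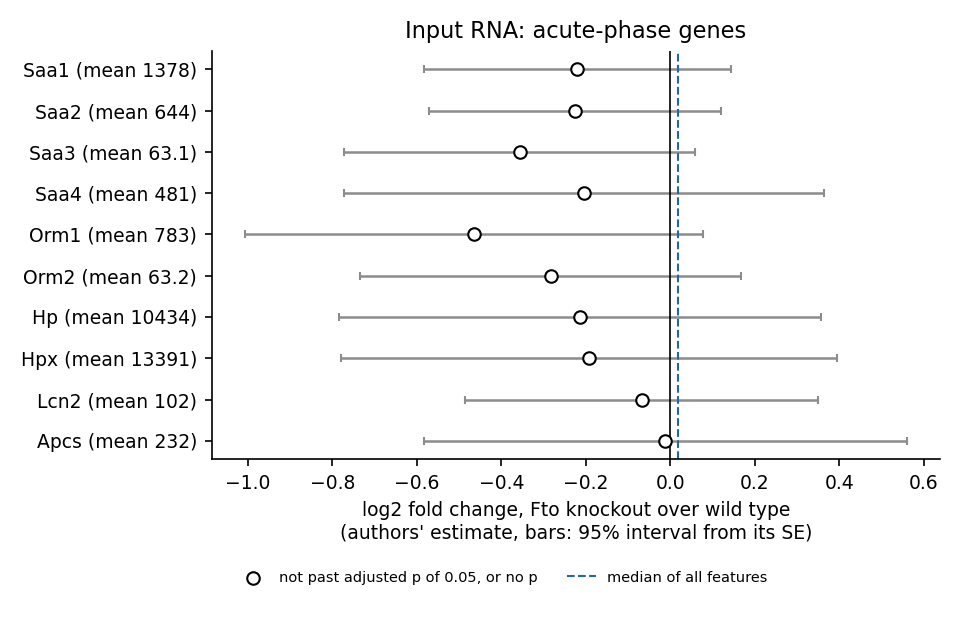
Authors' log2 fold change in input RNA, Fto knockout over wild type (x axis), for the 10 acute-phase genes, with the mean normalized count after each name. Bars are 95% intervals from the standard error and the dashed line is the median of all genes (0.02). All 10 points lie below 0, from −0.47 (Orm1) to −0.01 (Apcs), and all 10 intervals include 0.

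Other genes of the acute-phase response did not pass in the input either. Of 19 further positive acute-phase genes, such as the fibrinogen chains, 14 lay below 0 and 5 above, with a median log2 fold change of −0.12 and 0 called. Lrg1, a leucine-rich glycoprotein, stood at −0.28 (SE 0.27) and Itih4, an inter-alpha-trypsin inhibitor heavy chain, at −0.25 (SE 0.25) by the authors' deposited table. The metal-binding metallothionein gene Mt2 was at −0.28 (SE 0.30), and Hamp, which encodes the iron hormone hepcidin, was on the other side at 0.36 (SE 0.26) by the authors' deposited table. Of 10 negative acute-phase genes, whose products fall in inflammation, 6 lay above 0 and 4 below, with a median of 0.09 and 0 called. The corticosteroid carrier gene Serpina6 was at 0.54 (SE 0.29, unadjusted p = 0.0621) and the retinol carrier gene Rbp4 at 0.24 (SE 0.21) by the authors' deposited table. Ttr, which carries thyroxine, was at −0.16 (SE 0.20), and the fetuin gene Ahsg was at 0.15 (SE 0.23) by the authors' deposited table. Members of either list had no unadjusted p under 0.05.

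Of 21 receptor, kinase and transcription factor genes that carry the cytokine signal, 14 lay below 0 and 7 above, with a median of −0.03 and 0 called, and 0 had an unadjusted p under 0.05. The 4 with the lowest p were on both sides of 0. They were the C/EBP factors Cebpb at −0.40 (SE 0.25) and Cebpd at −0.43 (SE 0.30), the NF-kB inhibitor Nfkbia at −0.27 (SE 0.26) and Socs3, a feedback inhibitor of cytokine receptors, at 0.24 (SE 0.26) by the authors' deposited table. Inducing cytokines were near the bottom of the measured range. Lif, Il1b and Il1a had means of 1.87, 4.18 and 10.02 with log2 fold changes of 0.18, 0.14 and 0.09 by the authors' deposited table, and the other 4 cytokines of the list were not analysed here. Genes whose products act on the members' ligands or receptors also had 0 called of 6, with 3 above and 3 below 0. Hmox1, which breaks down heme, was at 0.34 (SE 0.29), the hemopexin receptor gene Lrp1 at −0.25 (SE 0.22), the lipoprotein receptor gene Scarb1 at 0.27 (SE 0.26) and Fpr2, a chemoattractant receptor gene, at 0.07 (SE 0.09) by the authors' deposited table.

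Marker genes of the cell types that can make these proteins were read beside them. All 8 hepatocyte markers were measured in this liver RNA, with Alb at a mean of 84262 by the authors' deposited table. Their median log2 fold change was 0.12, above the −0.22 of the acute-phase genes, with 5 above and 3 below 0. Among the 8, 0 were called and 2 had an unadjusted p under 0.05. Those were the tyrosine aminotransferase gene Tat at 0.57 (SE 0.26) and Cyp2e1 at 0.43 (SE 0.21) by the authors' deposited table. Cps1 of the urea cycle was at 0.23 (SE 0.21) and Ttr at −0.16 (SE 0.20) by the authors' deposited table. Of 11 neutrophil markers 4 were measured, at means from 2.34 to 4.68 that sum to 14.2, and all 4 were above 0. Of all genes 46.5% lay below 0, and of those with a mean of at least 10 it was 49.4%. The 4 were measured in the same libraries, so their shared sign is not 4 separate observations. S100a9 stood at 0.52 (SE 0.26, unadjusted p = 0.0499), Ltf at 0.17, S100a8 at 0.14 and Mmp9 at 0.03 by the authors' deposited table. All 11 Kupffer cell and macrophage markers were measured, with 5 above and 6 below 0 and a median of −0.00079. The 4 with the lowest p all lay above 0. They were the scavenger receptor gene Marco at 0.49 (SE 0.30), Timd4 at 0.43, Adgre1 at 0.43 and C1qc at 0.25 by the authors' deposited table. Of the 6 below 0, the lowest were Cd68 at −0.20 (SE 0.30) and Clec4f at −0.16 (SE 0.24) by the authors' deposited table. Of 6 adipocyte markers only Adrb3 was measured, at 0.23 with a mean of 8.31 by the authors' deposited table. The part of other cells in the members' values was not tested.

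**Figure D2:**
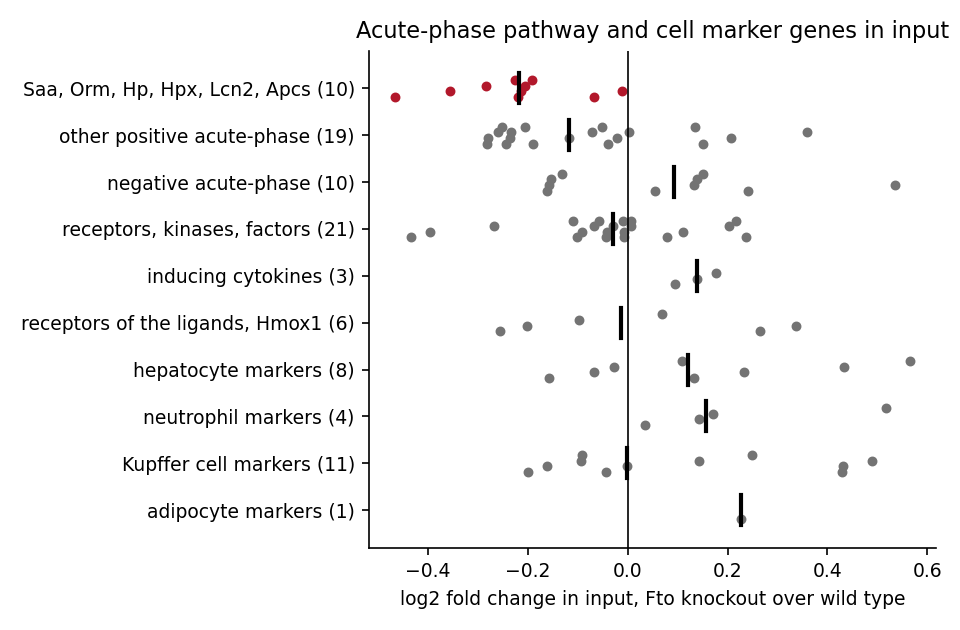
Authors' log2 fold change in input RNA, Fto knockout over wild type (x axis), with 1 point per gene and 1 row per gene list, the number measured in brackets. Black bars are list medians, which were −0.22 for the 10 acute-phase genes in red, −0.12 for other positive and 0.09 for negative acute-phase genes. No gene shown passed the authors' adjusted p of 0.05.

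The mean level in the immunoprecipitate was next set beside the mean level in input, over the libraries of each table, to see how much of each RNA came with the antibody. The members were spread over nearly the whole range. Saa2 had a mean of 595 normalized counts in the immunoprecipitate and 644 in input, while Hp had 12.6 in the immunoprecipitate and 10434 in input, from the authors' deposited tables. Among 1903 protein-coding genes found in both tables at an input mean of at least 50, the median ratio of immunoprecipitate to input was 0.0419. These are 46.1% of the input genes at that mean, and a gene absent from the immunoprecipitate table has no ratio and no rank. For Saa2 the ratio was 0.924, rank 11 from the highest. For Hp it was 0.00121, rank 1899 of 1903. The tables were normalized separately, the immunoprecipitate by transcript and the input by gene, so a ratio has meaning only beside the ratios of other genes. Where a gene had several transcripts in the immunoprecipitate, the highest transcript mean was taken, while each member had a single transcript.

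Orm2 had a mean of 23.5 in the immunoprecipitate and 63.2 in input, a ratio of 0.372 at percentile 98.1. Saa3 had 19.9 in the immunoprecipitate and 63.1 in input, a ratio of 0.316 at percentile 97.7. Orm1 had 195.0 in the immunoprecipitate and 783 in input, a ratio of 0.249 at percentile 96.4. These 3 and Saa2 thus lay in the highest 5% of the ratios, which began at 0.206. Apcs had 20.5 in the immunoprecipitate and 231.8 in input, a ratio of 0.0886 at percentile 78.5. Saa4 had 38.3 in the immunoprecipitate and 481 in input, a ratio of 0.0796 at percentile 74.99. Hpx had 220.9 in the immunoprecipitate and 13391 in input, and its ratio of 0.0165 lay at percentile 18.7. At an input mean of at least 500, where 80.0% of input genes were found in both tables, the median ratio was 0.0166. The medians at the 2 minimum means cover unequal shares of the input genes, so no trend of the ratio with level is read from them. Among the genes at 500 or more, the ratio of Hpx was at percentile 49.3 of 288 genes, and Saa2 (98.6), Orm1 (96.2) and Hp (1.04) kept to their ends. Saa2 and the Orm genes have close paralogs whose reads may be counted with theirs. Set against the summed input means of Saa1 and Saa2 (2023), Saa2 had a ratio of 0.294 and a percentile of 97.4. The part of read sharing, transcript length and methylation in these ratios was not tested.

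**Figure D3:**
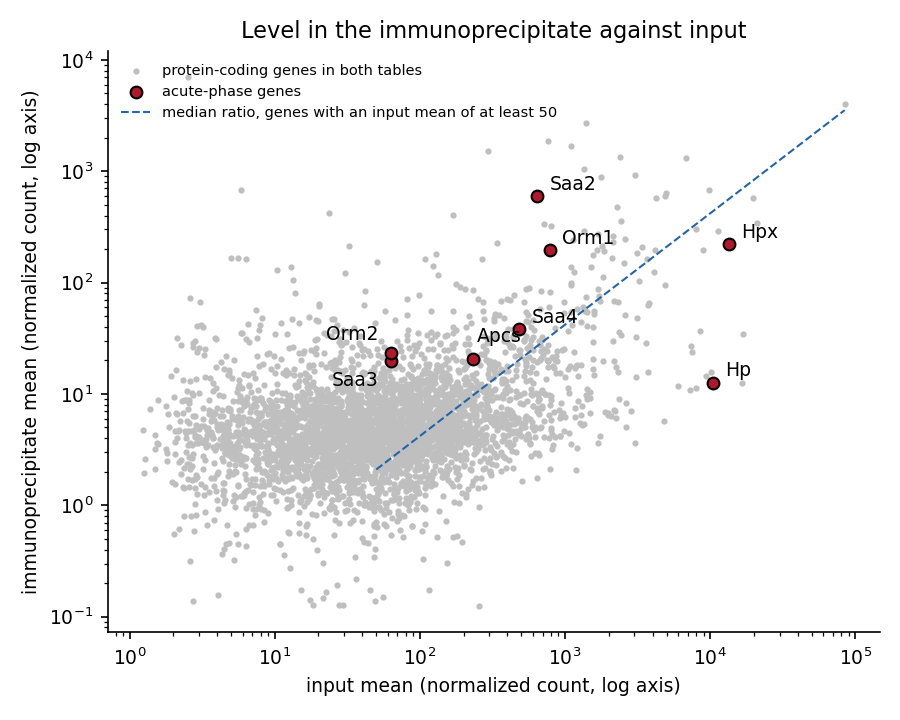
Authors' mean normalized count in the immunoprecipitate (y axis, log, highest transcript of a gene) against that in input (x axis, log). Shown are 3834 protein-coding genes found in both tables, with 8 acute-phase genes in red. The dashed line is the median ratio of 0.0419 among genes with an input mean of at least 50. Saa2 lies far above the line, at 595 in the immunoprecipitate and 644 in input, and Hp far below it, at 12.6 in the immunoprecipitate and 10434 in input.

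The immunoprecipitate comparison, knockout against wild-type liver, asks whether the antibody recovered more or less of each RNA without Fto. Saa4 was the 1 member called, at −10.56 on the log2 scale (SE 1.57, adjusted p = 7.75e-05, mean 38.3) by the authors' deposited table. Of the 7 member features with an adjusted p, 1 was called, against 4.69% of all features (110 of 2347) and 3.79% called lower (89). The direction is read as knockout over wild type, as in the input. The header does not state it and no gene of known change fixes it, and with the other reading all signs of this comparison turn. In input Saa4 stood at −0.20 (SE 0.29) by the authors' deposited table. A fold of this size at a mean of 38.3 leaves next to no reads in 1 group: between groups of equal size it would mean 0.0508 normalized counts in knockout and 76.6 in wild type. So the size itself was not measurable.

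The authors' p in this comparison does not follow from the printed fold change and its error. Orm1 stood at −2.04 (SE 1.03) with an authors' p of 0.557, and Saa2 at −3.02 (SE 2.02) with an authors' p of 0.992, by the authors' deposited table. The normal p of the fold over its standard error was 0.0475 for Orm1 and 0.135 for Saa2. With that p adjusted by Benjamini-Hochberg over all 7569 features, 3 of the 8 members were called lower, against 8.01% of all features (606). They were Saa4 (adjusted p = 3.48e-09), Saa3 (adjusted p = 0.00981) and Hp (adjusted p = 0.0450). Saa3 stood at −10.19 (SE 2.94, mean 19.9) with no p by the authors' deposited table, where 723 of 7569 features have none. Hp stood at −7.10 (SE 2.50, mean 12.6) and an adjusted p of 0.263 by the authors' deposited table. Hp therefore depends on which p is read, and Saa4 passes under either. Saa3 passes only by the fold over its standard error, since the authors gave it no p in either comparison. The reason was not stated here either, and a count far from the rest in 1 library can be such a reason. The folds of Saa3 and Hp also leave next to no reads in 1 group. Between groups of equal size they would mean 0.0341 normalized counts in knockout for Saa3 and 0.182 for Hp. Their sizes were thus not measurable either.

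The remaining members were on both sides of 0. Orm2 stood at −2.96 (SE 2.22, adjusted p = 0.981), close to Saa2 and to Orm1, by the authors' deposited table. Hpx had the highest value, at 3.70 (SE 1.59, adjusted p = 0.331, mean 220.9), with an interval from 0.59 to 6.82, from the authors' deposited table. It did not pass by the fold over its standard error either (adjusted p = 0.115). Apcs stood at 0.58 (SE 2.08, adjusted p = 0.820) by the authors' deposited table. The heme scavenger Hpx and the haemoglobin scavenger Hp thus had estimates of opposite sign here, at 3.70 and −7.10, and nearly equal estimates in input, at −0.19 and −0.21. The difference between them was not tested. Of the 8 members 6 lay below 0, with a median of −2.99, beside 70.5% of all features below 0 and a median of −1.59. Standard errors were 1.03 to 2.94, so a change of 1 log2 unit lies within 1.96 standard errors of 0 for every member.

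**Figure D4:**
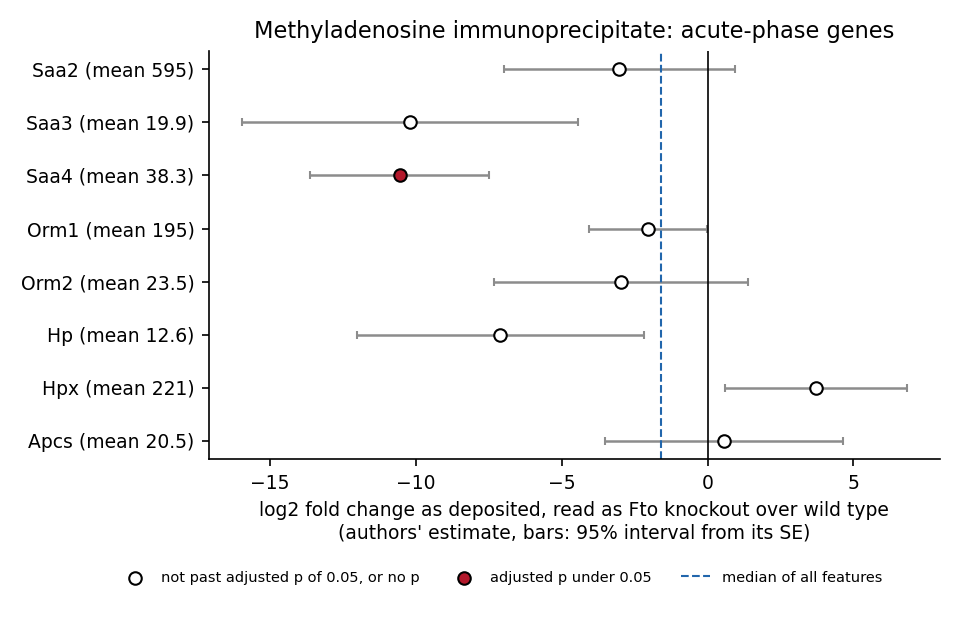
Authors' log2 fold change in the immunoprecipitate, read as Fto knockout over wild type (x axis), for 8 acute-phase transcripts, with the mean normalized count after each name. Bars are 95% intervals from the standard error and the dashed line is the median of all features (−1.59). Saa4, in red, is the 1 member past the authors' adjusted p of 0.05, and Hpx (3.70) and Apcs (0.58) lie above 0.

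The wider pathway in the immunoprecipitate had 1 call by the authors' adjusted p, among 62 features of 42 genes in the lists. By the fold over its standard error, adjusted over all features, 14 were called, 6 higher and 8 lower, against 2.81% of all features called higher and 8.01% called lower. As for the members, the count thus depends on which p is read. Among positive acute-phase genes 22 features of 15 genes were measured, 9 above and 13 below 0, with 0 called by the authors' adjusted p and 4 at an unadjusted p under 0.05. The ferroxidase gene Cp had 3 of these, transcripts with the same value of 8.37 (SE 2.55, adjusted p = 0.140), and Itih4 had the other, at −6.04 (SE 2.04, adjusted p = 0.183), by the authors' deposited table. These 4 and the fibrinogen gene Fgg, at 4.65 (SE 1.67, adjusted p = 0.331) by the authors' deposited table, were the 5 called by the fold over its standard error. The other transcripts of Cp and Itih4 had the opposite sign. For Cp they stood at −0.69 (SE 0.73, mean 149) and −2.58 (SE 2.09, mean 4.97) by the authors' deposited table. For Itih4 they stood at 1.27 (SE 1.06, mean 123). Means were 11.0 for the Cp transcripts at 8.37 and 11.7 for the Itih4 transcript at −6.04. The Lbp transcripts share a value too (4.44, mean 3.10), so the 22 features are not separate observations.

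Among negative acute-phase genes 14 of 16 features, from 9 genes, lay below 0, beside 70.5% of all features. These features are not separate observations, since Igf1 has several transcripts and the Fetub transcripts share the value −5.87. The feature called by the authors' adjusted p was a transcript of the growth factor gene Igf1, at −10.08 (SE 2.18, adjusted p = 0.0323, mean 13.1) by the authors' deposited table. By the fold over its standard error 4 were called, all lower: both this and another Igf1 transcript, the retinol carrier gene Rbp4 at −7.02 (SE 1.76), and Igfals, whose product carries insulin-like growth factors, at −8.79 (SE 2.11) by the authors' deposited table. The authors' adjusted p was 0.0637 for Rbp4 and 0.0973 for Igfals. The remaining Igf1 transcripts were called by neither p. Their values ran from −2.70 (SE 2.14, mean 24.2, adjusted p = 0.601) to −0.70 (SE 2.64, mean 12.4) by the authors' deposited table. Of the signalling genes 9 were measured, and 10 of their 11 features lay below 0, beside 70.5% of all features. The Hnf4a transcripts share the value −3.88, so these features are not separate observations either. By the authors' adjusted p 0 were called, and 2 had an unadjusted p under 0.05. Those were a transcript of Stat3, the factor downstream of interleukin-6, at −6.81 (SE 1.97, adjusted p = 0.124) and the receptor gene Tnfrsf1a at −8.09 (SE 2.48) by the authors' deposited table. The other Stat3 transcript stood at −3.96 (SE 2.17, adjusted p = 0.330) by the authors' deposited table. The 1 feature above 0 was the interleukin-1 receptor gene Il1r1, at 18.87 (SE 4.25, mean 6.67) with no p by the authors' deposited table. Il1r1 had the lowest p of the list by the fold over its standard error (adjusted p = 3.71e-04). A fold of this size at so low a mean leaves next to no reads in 1 group, so its size was not measurable. The others called that way were the Stat3 transcript at −6.81, Tnfrsf1a and the interleukin-6 receptor gene Il6ra at −5.87 (SE 2.05, authors' adjusted p = 0.666). The hemopexin receptor gene Lrp1 had 1 of 3 transcripts called by the fold over its standard error, at 9.36 (SE 2.60, authors' adjusted p = 0.127) by the authors' deposited table.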

How the data were processed

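Per the labels, total RNA of mouse liver was extracted with TRIzol, treated with DNase and cloned by the iCLIP procedure. The submitters' processing notes name STAR, bedtools 2.25.0 and DESeq2, and mm10 as the build, without saying what each was used for. The authors deposited 1 comparison table each for the immunoprecipitate (by transcript) and the input (by gene). Per the file headers, these give the mean normalized signal over libraries (scaled read counts), the log2 fold change with its standard error, a test statistic (a score), the p-value and the adjusted p-value. Counting rules, model formula and filters were not stated. There was no analysis of single replicates here, and the depth of each library is unknown.

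In input all 12865 p-values equalled the normal p of fold over standard error within 0.0001. In the immunoprecipitate 29 of 6846 did, and all 6846 equalled a chi-square tail with 1 degree of freedom at the statistic, so they do not test the printed fold in that form. Standard errors in input reached at most 0.302, at all means, and were small at some very low means, such as 0.09 for Fpr2 at 1.65. That is the pattern of shrunken estimates, but the model was not stated and shrinkage was not tested. Where estimates are shrunken, fold changes lie nearer to 0 and intervals from them are too narrow for the unshrunken change.

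Computed here with Python 3.11.15, pandas 2.3.3 and SciPy 1.17.1: intervals (95%), Benjamini-Hochberg adjustment over whole tables (tested on simulated data), level ratios, list counts, promoter letters and identity (Biopython, global alignment). A call is an adjusted p under 0.05. List genes were matched by current symbol (12869 of 12883 input IDs matched). The members and lists were chosen with earlier results of these data known. All 10 members were described, with the up to 4 genes of each of 9 lists that had the lowest input p, the called ones, and in the immunoprecipitate examples chosen after their values were seen. Alternatives were the threshold, the features adjusted over, a minimum mean of 10, centring and the p used. Of the signalling list, 1 gene is not reported here and was left out of its counts.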

Additional observations from a re-analysis of the deposited data

How the results depend on the processing

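The input result, 0 members called, was the same at an adjusted p under 0.1, with adjustment over all genes that have a p, and among genes whose mean reached 10. In the immunoprecipitate 1 member was called under each of these settings, and 3 were called when the fold over its standard error replaced the authors' p. Centring on the median of features whose mean reached 10 shifts values by 0.82 in the immunoprecipitate and by under 0.01 in input. It turned the sign of no member in either table and moved none by more than its standard error. The members' median was then −0.22 in input and −2.17 in the immunoprecipitate. Taking 1 feature per gene changed nothing, since each member has 1, and no other transcript of a member could be used. Lists in the input had 0 calls with or without a minimum mean of 10, which left no neutrophil and no adipocyte marker. For the level ratios, settings chosen after seeing the data mattered. With no minimum input mean, Saa2 stood at percentile 91.9, Orm2 at 80.4, Saa3 at 78.3, Orm1 at 73.8, Apcs at 47.3, Saa4 at 44.5 and Hpx at 9.83. No paired analysis was possible because values per replicate were not analysed here, and no replicate could be left out for the same reason.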

Other observations

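Orm3, the third alpha-1-acid glycoprotein gene of the chromosome 4 cluster and no member of the list above, was measured at low means of 4.32 in the immunoprecipitate and 4.90 in input. In input its log2 fold change was 0.11 (SE 0.28), on the other side of 0 from Orm1 and Orm2, and in the immunoprecipitate it was −2.81 (SE 2.52), by the authors' deposited table. Neither value passed the authors' test. Lrp1, the hemopexin receptor gene, had 3 immunoprecipitate transcripts that did not share a value, at 9.36 (SE 2.60, adjusted p = 0.127), 7.36 (SE 3.22) and −0.12 (SE 2.44), by the authors' deposited table. Of the Kupffer cell markers 3 were found in the immunoprecipitate, with means up to 9.64 and 0 called, and neutrophil markers and inducing cytokines were not analysed there.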
